A study of Mus musculus with 3 samples.

Results

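The cells described here were Tnfrsf4+ Ccl5-low CD8 T cells of pancreatic islets in the NOD strain of mice, which develops autoimmune diabetes spontaneously. Tnfrsf4 encodes OX40, a costimulatory receptor of activated T cells, and Ccl5 encodes a chemokine that CD8 T cells store after effector differentiation. A cell was taken as a member when it had at least 1000 UMIs (unique molecular identifiers, each standing for 1 captured transcript) with under 10% of them mitochondrial, at least 1 UMI of Cd3d, Cd3e and Cd3g together, at least 2 of Cd8a and Cd8b1 together, none of Cd4, Cd40lg or Foxp3, at most 1 of Cd79a, at least 2 of Tnfrsf4 and at most 1 of Ccl5. Of the 26947 cells deposited, 26142 passed the limits on UMIs and mitochondrial share, 20836 were T cells, 3493 were CD8 T cells with no Cd4 UMI, and 197 were members. They numbered 66 in library 1, 42 in library 2 and 89 in library 3. The members were thus chosen by their measured UMIs of 11 genes, and these genes, Tnfrsf4, Ccl5, Cd8a and Cd8b1 among them, are described below without a test.

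All cells came from untreated wild-type female NOD/Lt mice aged 15 to 16 weeks, with no transgene or drug. Islets of 2 to 3 mice were pooled for each of 3 libraries, which came from 2 independent experiments, live CD45+ cells were sorted by flow cytometry, and transcripts were counted from their 3′ ends by droplet sequencing. Which library belonged to which experiment is not given in the sources used here, so the experiment cannot be told apart from the library. There was 1 condition, and the comparisons were between groups of cells of the same libraries, with the library as the unit of replication.

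OX40 is a member of the TNF receptor family that appears on T cells after antigen contact and, when bound by its ligand OX40L on antigen-presenting cells, signals through TRAF adaptors and NF-kB to prolong survival and division. In CD8 T cells the receptor is usually brief, whereas regulatory and activated CD4 T cells carry it more steadily. CD8 T cells of the islet are the main killers of beta cells in this strain, and effector cells among them are known for granzymes, perforin and Ccl5, while naive cells are known for Lef1 and Ccr7.

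The libraries held 5844, 9537 and 11566 cells with 33851381, 74775394 and 80806452 UMIs. Counts were summed over the cells of a group in each library, and a level is given in CPM, a gene's UMIs scaled to the same fixed total in every sum, in the order of libraries 1, 2 and 3. The members' sums held 573880, 402149 and 768314 UMIs. The members were deeper than their main comparison cells. Their median was 6437, 7912 and 7278 UMIs per cell, against 4623, 6769 and 5861 in Ccl5-low CD8 T cells without a Tnfrsf4 UMI and 4591, 6525 and 5839 in CD4 T cells with Tnfrsf4 under the same other conditions. Library 1 stood apart from the other libraries before any comparison of the members. Its Ccl5-low CD8 T cells without Tnfrsf4 had 64.8 CPM of Mki67, a proliferation gene, against 3.73 and 2.80.

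**Figure D1:**
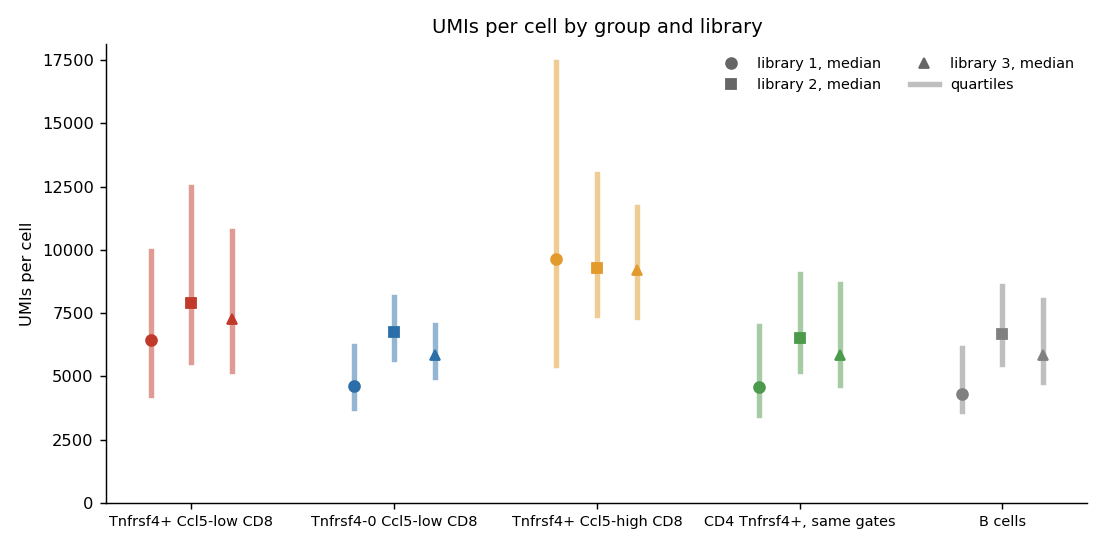
UMIs per cell (vertical axis) in each of 3 libraries for Tnfrsf4+ Ccl5-low CD8 T cells, the comparison groups and B cells, with points at the median and bars over the quartiles. The median of the members lay above that of the Ccl5-low CD8 T cells without Tnfrsf4 and of the gated CD4 T cells in each library, and below that of the Tnfrsf4+ CD8 T cells with 2 or more Ccl5 UMIs.

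The members were 10.5% of CD8 T cells in library 1 (95% exact Clopper-Pearson interval 8.22 to 13.2), 3.21% in library 2 (2.32 to 4.31) and 5.72% in library 3 (4.62 to 7.00), a mean of 6.48% ± 3.71 (SD, n = 3). These intervals cover counting error only, and the interval of library 1 did not reach those of the other libraries. Among CD8 T cells that met every other condition and had at least 2 Tnfrsf4 UMIs, the Ccl5-low cells made up 66.7%, 44.2% and 54.3%. The other cells of that set, 161 in all, had 2 or more Ccl5 UMIs and are called Tnfrsf4+ Ccl5-high below.

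Cells lay on both sides of each threshold with no gap between them. With the other conditions held, 1398 cells had no Tnfrsf4 UMI, 120 had 1, 29 had 2, 29 had 3 and 14 had 4. For Ccl5, 173 members had no UMI and 24 had 1, while 13 cells just outside had 2 and 10 had 3. For Cd8a and Cd8b1 together, 847 cells had no UMI and 53 just outside had 1, and 40 members had 2, 36 had 3 and 25 had 4.

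The coreceptor genes were part of the rule for every CD8 group and are described only, and CD8 lineage genes outside the rule are given with the CD4 T cells below. Cd8b1, the beta chain of CD8 (ENSMUSG00000053044, chromosome 6, 71322788 to 71337494 in GRCm38), stood at 310, 293 and 253 CPM in the members and at 303, 282 and 317 CPM in Ccl5-low CD8 T cells without Tnfrsf4. In CD4 T cells with Tnfrsf4 it stood at 19.3, 10.8 and 8.24 CPM. Cd8a, the alpha chain, stood at 498, 308 and 362 CPM in the members, with library 1 the highest. Tnfrsf4 (ENSMUSG00000029075, chromosome 4, 156013843 to 156016612) stood at 816, 783 and 961 CPM, below the 1124, 1234 and 1290 CPM of CD4 T cells with Tnfrsf4 and above the 391, 473 and 478 CPM of Tnfrsf4+ Ccl5-high CD8 T cells. Ccl5 was at 13.9, 12.4 and 14.3 CPM by the rule, against 2014, 9403 and 7867 CPM in the Tnfrsf4+ Ccl5-high cells.

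Few B cells met the threshold for the CD8 genes or for Tnfrsf4. Whether the UMIs in these came from free RNA or from doublets was not tested. At least 2 UMIs of Cd8a and Cd8b1 were found in 1 B cell of each library (0.0877%, 0.0747% and 0.117% of 1140, 1339 and 855 B cells, with medians of 4306, 6692 and 5834 UMIs), and at least 2 Tnfrsf4 UMIs in 2, 1 and 1 B cells. Transcripts of both coreceptors were met more often among T cells. Of the CD4 T cells with at least 2 Tnfrsf4 UMIs, 42, 97 and 129 also had at least 2 UMIs of Cd8a and Cd8b1 (5.12%, 6.0% and 5.99%), and their median depth was 12109, 18293 and 16325 UMIs. The members' median depth was lower than this in each library. No doublets were removed for the values below. Scrublet's own threshold called 2, 1 and 2 cells of the whole libraries, too few to have worked, and the 7.6% of cells with its highest scores took in 5, 3 and 13 members (7.58%, 7.14% and 14.6%), against 4.06%, 4.63% and 5.6% of the gated CD4 T cells and 0.641%, 0.862% and 1.66% of the Ccl5-low CD8 T cells without Tnfrsf4. Pairs of libraries shared 12, 18 and 29 cell barcodes, and no barcode was a member in more than 1 library.

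Izumo1r, which encodes folate receptor 4, a surface protein of regulatory and anergic T cells, was higher in these cells than in both other CD8 groups, and for Il7r, the receptor for the survival cytokine IL-7, no difference from other Ccl5-low CD8 T cells was called. Izumo1r (ENSMUSG00000031933, chromosome 9, 14885814 to 14903949) stood at 106, 57.2 and 104 CPM in the members, at 35.8, 13.1 and 14 CPM in Ccl5-low CD8 T cells without Tnfrsf4 and at 39.1, 29.4 and 34.3 CPM in Tnfrsf4+ Ccl5-high CD8 T cells. The members were above both CD8 groups in each library, with no overlap. A UMI of Izumo1r was seen in 78 of the 197 members, and after thinning each cell to 2000 UMIs in 18.5% ± 1.49 (SD, n = 3) of them. The thinned share was 3.48% ± 2.54 in Ccl5-low CD8 T cells without Tnfrsf4, 23.9% ± 9.72 in the gated CD4 T cells and 0.0885% ± 0.153 in B cells. Without thinning, 38.9% of the members and 8.08% of the Ccl5-low CD8 T cells without Tnfrsf4 had a UMI.

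Il7r (ENSMUSG00000003882, chromosome 15, 9505788 to 9530176) stood at 282, 279 and 380 CPM in the members, at 347, 246 and 306 CPM in Ccl5-low CD8 T cells without Tnfrsf4 and at 55.6, 163 and 163 CPM in the Tnfrsf4+ Ccl5-high CD8 T cells. The Ccl5-high cells were below the members in each library, and the other pair of groups overlapped (log2 change of the members -0.16, SE 0.13, edgeR adjusted p = 0.48). Against CD4 T cells with Tnfrsf4 under the same other conditions the value was 0.12 (SE 0.13, adjusted p = 0.75), and against all CD4 T cells with Tnfrsf4 it was 0.51 (SE 0.10, adjusted p = 0.0095), called in 7 of 11 alternative settings and not without library 3 (0.45). Thinned to 2000 UMIs, 41.0% ± 7.04 of the members had an Il7r UMI, against 38.3% ± 4.81 in Ccl5-low CD8 T cells without Tnfrsf4, 30.3% ± 4.02 in the gated CD4 T cells and 1.14% ± 0.0722 in B cells.

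**Figure D2:**
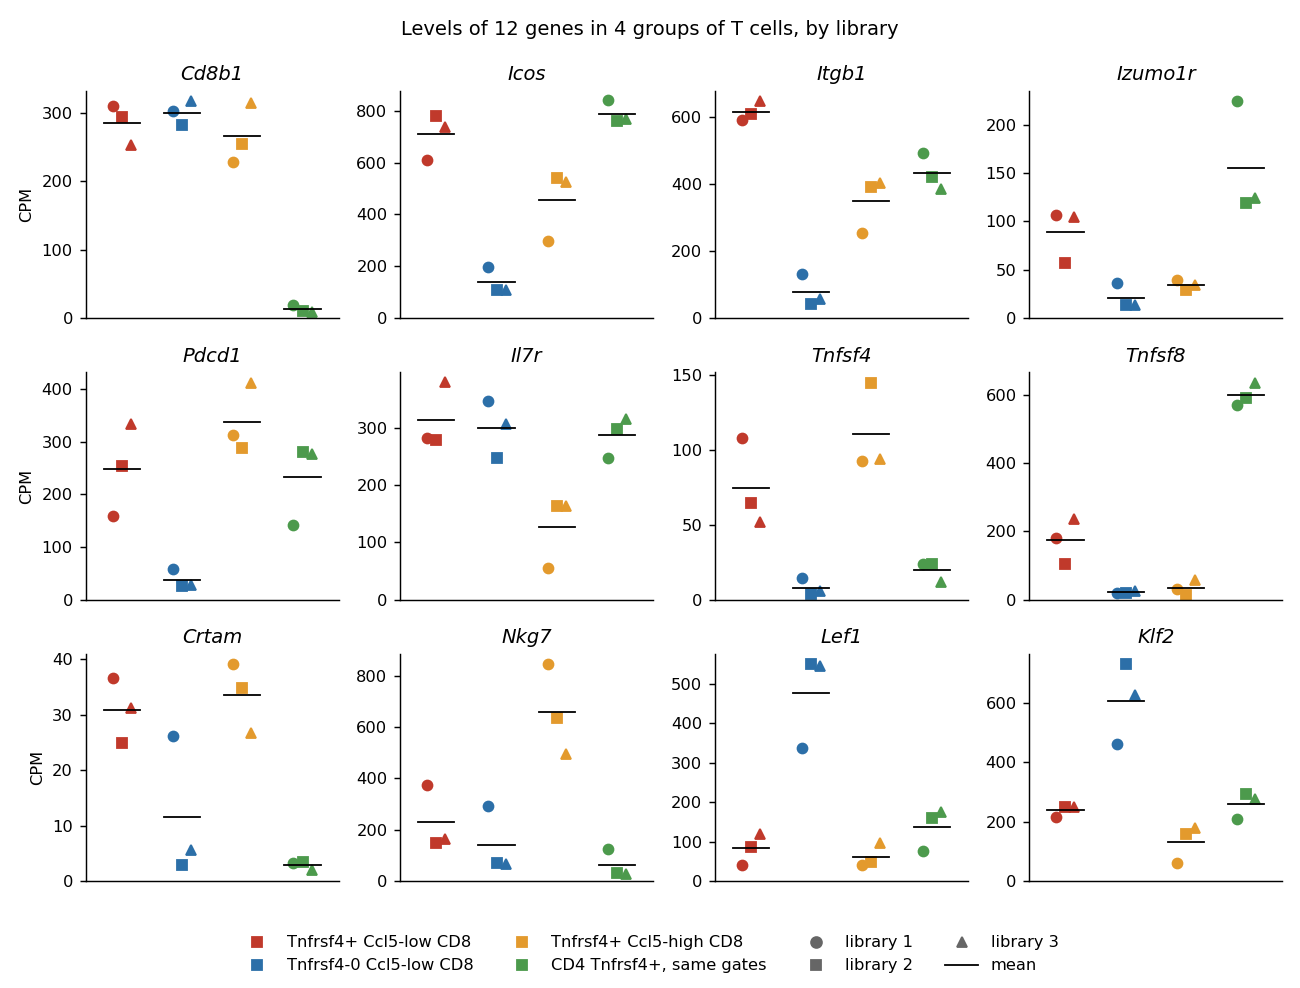
Levels of 12 genes in CPM (vertical axes) in 4 groups of T cells, with 1 point per library and a line at the mean of 3 libraries. Cd8b1 in the Tnfrsf4+ Ccl5-low CD8 T cells, in red, lay with the other CD8 groups by the rule, while Icos, Itgb1 and Pdcd1 lay far above the Ccl5-low CD8 T cells without Tnfrsf4, in blue, and Lef1 and Klf2 below them.

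The members were first compared with Ccl5-low CD8 T cells without Tnfrsf4 that met all the other conditions (156, 580 and 662 cells), so that the groups differed by rule in Tnfrsf4 alone. Icos, Pdcd1, Itgb1 and Nt5e were among the genes that were higher in the members, and 13 of 16 tested naive and memory genes and 8 of 14 interferon-induced genes were lower. Of 9606 genes tested by quasi-likelihood in edgeR, with a term for the library, 690 were higher and 642 lower at an adjusted p under 0.05, 13.9% of all tested (7.18% higher and 6.68% lower). The median log2 change over all genes was -0.01, and the sums of the members and of the comparison cells in a library came from the same pooled mice. In 22.8% of all genes the 3 members' values did not overlap with the 3 others. Calls were repeated under 11 alternative settings, among them cells within the study's own limits of 6000 UMIs, 5000 genes and 5% mitochondrial UMIs, which left 29, 9 and 24 members, and a call said to be lost below was no longer past the threshold there.

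Receptors that steer T cell activation were the first group. Icos, an inducible costimulator of the CD28 family, stood at 612, 781 and 739 CPM in the members and at 198, 110 and 109 CPM in the Ccl5-low CD8 T cells without Tnfrsf4, a log2 change of 2.18 (SE 0.16, adjusted p = 8.6e-07). The groups did not overlap, and a UMI was found in 71.4% ± 6.57 of members and in 21.0% ± 4.66 of the others after thinning. Ctla4, the inhibitory counterpart of CD28, stood at 288, 284 and 297 CPM against 161, 52.0 and 67.3 CPM (log2 change 1.57, SE 0.21, adjusted p = 0.00015). Of 11 tested receptors of the TNF receptor and CD28 families, 4 were higher and none lower (median log2 change 0.45), the others being Cd28 and Tnfrsf9, which encodes 4-1BB. The call for Cd28 (0.64) was lost without library 2 (0.49) or library 3 (0.59), and that for Tnfrsf9 (1.25, SE 0.27) without library 3 (0.71), without the library term and within the study's limits (0.18). The value for Tnfrsf18, the receptor GITR, was 0.18 (SE 0.12, adjusted p = 0.39), on 261, 383 and 389 CPM in the members.

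Of 8 tested ligands of the TNF family, 4 were higher and none lower (median 1.21). Tnfsf4, the ligand of OX40 itself, stood at 108, 64.7 and 52.1 CPM in the members and at 14.5, 3.97 and 5.59 CPM in the comparison cells (log2 change 3.21, SE 0.30, adjusted p = 7.4e-06). Tnfsf8, which encodes CD30 ligand, stood at 180, 104 and 236 CPM against 20.3, 20.1 and 24.2 CPM (log2 change 2.74, SE 0.19, adjusted p = 5.5e-07). Neither gene had overlapping groups, and Tnfsf4 was highest in library 1 in each of these groups. The other ligands called were Tnfsf11, which encodes RANKL, and Tnf.

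Most genes of the NF-kB pathway downstream of OX40 were not called. Of 25 tested TRAF, NF-kB and target genes, 4 were higher and 1 lower, and their median was -0.09. Those higher were the adaptor Traf1 (0.56, SE 0.12), the inhibitor Tnfaip3 (0.56, SE 0.10) and the survival genes Bcl2a1b and Bcl2a1d (1.21, SE 0.22 and 1.78, SE 0.40). The last are near-identical copies whose reads may have been split between them, so their single values are uncertain. The gene that fell was Bcl3, an atypical relative of the NF-kB inhibitors, by 1.19 (SE 0.28). None of these 5 genes was called without library 3, where the values were 0.41 for Traf1, 0.58 for Tnfaip3, 1.05 for Bcl2a1b, 1.46 for Bcl2a1d and -0.99 for Bcl3, or without the library term (0.56, 0.56, 1.08, 1.60 and -1.24). The calls for Traf1 and Bcl3 were also lost after thinning and within the study's limits.

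Brakes of T cell signalling were mostly higher or not called. Of 17 tested, 8 were higher and 1, the phosphatase Dusp2, lower (median 0.60), the latter at -0.50 and without a call when library 2 (-0.48) or library 3 (-0.56) was left out. Izumo1r rose by a log2 change of 2.05 (SE 0.21, adjusted p = 1.8e-05). Nt5e, which encodes CD73, an enzyme that makes adenosine outside the cell, stood at 99.3, 54.7 and 118 CPM against 30.9, 11.9 and 9.09 CPM (log2 change 2.52, SE 0.29, adjusted p = 4.4e-05). Nrp1, a semaphorin receptor known from regulatory T cells, rose by 3.34 (SE 0.36), and Ndfip1, an adaptor of Itch-type ubiquitin ligases, by 0.98 (SE 0.10). The transcription factors Egr2 and Egr3, known from anergic T cells, were too low to be tested here, with at most 3.48 CPM of each in any library of the members.

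Inhibitory receptors were higher in 6 of 10 tested and lower in none (median 1.32). Pdcd1, which encodes PD-1, stood at 159, 254 and 333 CPM in the members and at 58.0, 25 and 27.7 CPM in the comparison cells (log2 change 2.71, SE 0.31, adjusted p = 3.4e-05). Lag3, a receptor for MHC class II, stood at 115, 149 and 117 CPM against 34.8, 8.63 and 10.5 CPM (log2 change 2.97, SE 0.30, adjusted p = 1.3e-05). Pdcd1 and Lag3 did not overlap between the groups. The value of Tigit, an inhibitory receptor for CD155, was 1.22 (SE 0.41, adjusted p = 0.062), on 19.2, 7.46 and 11.7 CPM in the members.

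Antigen receptor response genes did not move together. Nfatc1 (0.90, SE 0.13) and Cd5 (1.34, SE 0.22), a receptor that tracks the strength of antigen receptor signals, were higher, with Nr4a2 and Tnfrsf9, whereas Fos fell by 1.92 (SE 0.33) and Cd69, an early activation marker, by 1.23 (SE 0.21), with Nr4a1 and Egr1. That made 4 higher and 4 lower of 16, with a median of 0.07. The call for Nr4a1 (-0.80) was lost without library 2 (-0.53) or library 3 (-0.69), and that for Egr1 (-0.86) without library 1 (-0.91), library 2 (-0.65) or library 3 (-1.05). Fos stood at 80.2, 2.49 and 24.7 CPM in the members and Cd69 at 74.9, 37.3 and 78.1 CPM, against 109, 129 and 140 CPM of Cd69 in the comparison cells.

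Of 16 tested naive and memory genes, 13 were lower and 1 higher, with a median of -1.30. Lef1, a transcription factor of naive T cells, stood at 41.8, 87.0 and 120 CPM in the members and at 338, 551 and 545 CPM in the comparison cells, and fell by 2.80 on the log2 scale (SE 0.14, adjusted p = 4.7e-08). Klf2, a transcription factor of naive T cell traffic, stood at 216, 251 and 249 CPM against 463, 733 and 627 CPM and fell by 1.58 (SE 0.12, adjusted p = 1.3e-06). Satb1, a chromatin organiser, fell by 1.57 (SE 0.10). The gene that rose was Slamf6 (0.95, SE 0.14), a receptor of progenitor-like T cells. Ccr7, which leads T cells into lymph nodes, was among those that fell but by only 0.40 (SE 0.12, adjusted p = 0.040), from 650, 813 and 806 CPM to 706, 567 and 755 CPM, and library 1 did not share the direction. It was called in 4 of 11 alternative settings, and neither by DESeq2 (adjusted p = 0.056) nor without library 2 (-0.17) or library 3 (-0.41). B cells, which also express it, had a UMI of Ccr7 about as often as the members after thinning.

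**Figure D3:**
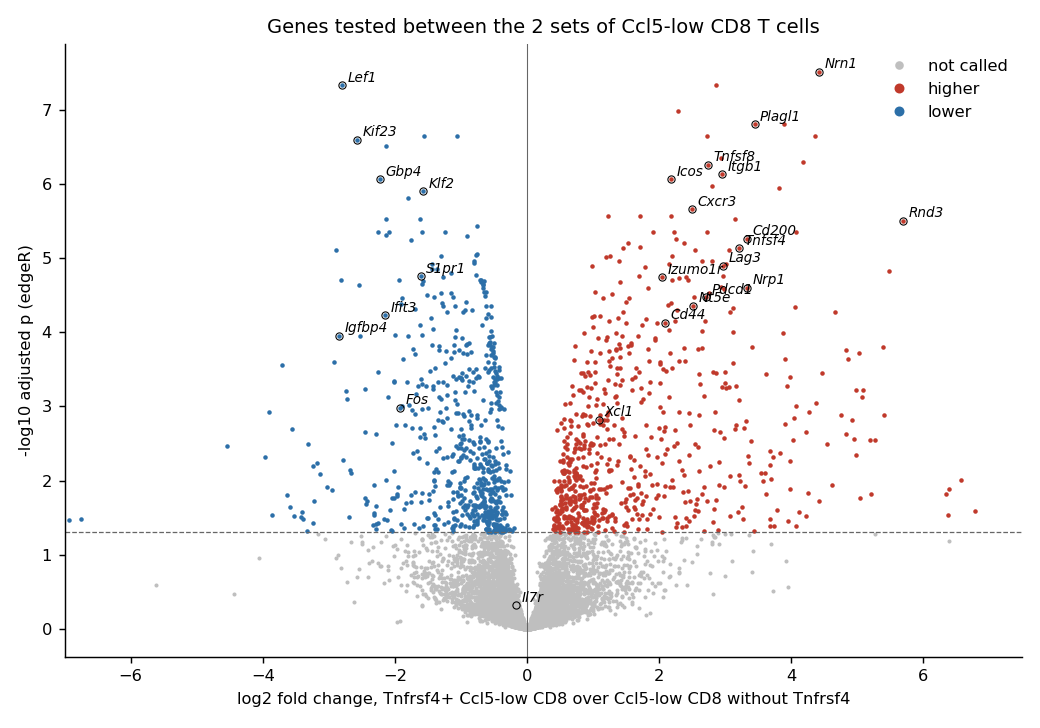
Each point is 1 of 9606 genes, with the log2 fold change of Tnfrsf4+ Ccl5-low CD8 T cells over Ccl5-low CD8 T cells without Tnfrsf4 (horizontal axis) and the −log10 of edgeR's adjusted p (vertical axis), the dashed line standing at 0.05. Nrn1, Plagl1, Tnfsf8, Itgb1 and Icos lay at the upper right, Lef1, Kif23, Gbp4 and Klf2 at the upper left, and Il7r below the line.

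Homing and residency genes changed in both directions, 9 higher and 5 lower of 20. Itgb1, the beta-1 integrin chain, stood at 591, 609 and 648 CPM in the members and at 131, 43.2 and 56.4 CPM in the comparison cells (log2 change 2.95, SE 0.21, adjusted p = 7.4e-07). Cxcr3, a receptor that draws T cells to interferon-induced chemokines, stood at 94.1, 102 and 121 CPM against 24.2, 16.6 and 12.8 CPM (log2 change 2.5, SE 0.20, adjusted p = 2.2e-06). S1pr1, the receptor for leaving tissue to the lymph, fell by 1.61 (SE 0.17), on 57.5, 211 and 189 CPM in the members. The members of library 1 had the least S1pr1 and the least Lef1 of the 3 libraries.

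Cytotoxic genes were higher in 12 and lower in 2 of 20 tested (median 1.05). Id2, a regulator of effector cells, rose by 1.25 (SE 0.12, but 0.63 and not called within the study's limits), Ctsw, a cathepsin of killer cells, by 1.01 (SE 0.12), and Ifng, the cytokine interferon gamma, by 1.68 (SE 0.22), on 88.9, 29.8 and 39 CPM in the members. The call for Ifng was lost after thinning (1.49) and within the study's limits (0.79). Gzmk, which encodes granzyme K, rose by 2.22 (SE 0.54, adjusted p = 0.012), on 10.5, 54.7 and 19.5 CPM against 9.67, 2.1 and 5.83 CPM. Its value was 1.03 (adjusted p = 0.21) without library 2 and 0.16 (adjusted p = 0.97) within the study's limits, and its call was also lost after thinning and without the library term. Gzmb, which encodes granzyme B, fell by 2.29 (SE 0.69, adjusted p = 0.039), on 1.74, 2.49 and 18.2 CPM, and was called in 4 of 10 alternative settings, not without library 2 (-1.44) or library 3 (-4.29). Xcl1, a chemokine that draws cross-presenting dendritic cells, differed greatly between libraries, at 782, 79.6 and 121 CPM in the members and 405, 23.8 and 43.3 CPM in the comparison cells. The members were higher within each library (log2 change 1.09, SE 0.20, adjusted p = 0.0015), but the groups overlapped across libraries. Within the study's limits the value of Xcl1 was -0.29 (adjusted p = 0.85).

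Interferon-induced genes were lower in 8 and higher in 1 of 14 (median -0.99). Gbp4, a guanylate-binding protein, stood at 13.9, 34.8 and 40.3 CPM in the members against 76.4, 144 and 134 CPM and fell by 2.23 (SE 0.16, adjusted p = 8.6e-07). Ifit3 fell by 2.15 (SE 0.26), on 3.48, 37.3 and 24.7 CPM, and the groups overlapped, library 1 being low in both, with 4.83 CPM in the comparison cells. Among the receptors of the common gamma chain family, 2 of 7 fell, Il4ra by 1.44 (SE 0.14) and Il2rg by 0.46 (SE 0.11), and none rose. The cytokine list had 3 higher of 6, Tgfb1 (1.29, SE 0.18), Ifng and Tnf. Cell cycle genes were higher in 2 of 15, Mcm6 (1.83, SE 0.25) and Hmgb2 (0.65, SE 0.19), with a median of 0.55, and the summed list stood at 2910, 2330 and 1070 CPM in the members against 2384, 721 and 690 CPM. The call for Tnf was lost without library 1 (1.44) or library 3 (1.49), against 1.72 with all libraries, that for Il2rg without library 2 (-0.46) or library 3 (-0.38), and that for Hmgb2 without library 2 (0.26).

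Genes outside the lists with the largest changes were taken by their size among those with at least 50 CPM in the higher group. Nrn1, which encodes neuritin, a surface protein known from regulatory and tolerant T cells, stood at 319, 184 and 324 CPM in the members and at 22.2, 6.07 and 10.7 CPM in the comparison cells (log2 change 4.42, SE 0.20, adjusted p = 3.1e-08). Cd200, an inhibitory ligand for myeloid cells, stood at 286, 224 and 237 CPM against 59.0, 9.57 and 15.4 CPM (log2 change 3.32, SE 0.30). Rnd3, a small GTP-binding protein, stood at 85.4, 27.4 and 57.3 CPM against 0, 0 and 1.86 CPM (104 UMIs against 8 in all). Its fitted log2 change was 5.69 (SE 0.48, adjusted p = 3.1e-06) and 9.86 without library 3, which held all 8 of those UMIs, so its size is uncertain. No UMI of Rnd3 was found in the Tnfrsf4+ Ccl5-high CD8 T cells of any library. Plagl1, a zinc finger transcription factor, Tiam1, a Rac exchange factor, and Slc22a15, a transporter, rose by 3.45 (SE 0.20), 3.89 (SE 0.23) and 4.18 (SE 0.29). Prss2, a trypsinogen of pancreatic acinar cells, was also in this set (4.83, SE 0.66) and stood at 24.4, 117 and 9.11 CPM, with library 2 the highest. Fam241a and Kif23, the latter a motor protein of cell division, were among the genes that fell most, by 2.26 (SE 0.20) and 2.58 (SE 0.17).

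The 250 bases before the RefSeq start sites of Tiam1 and Slc22a15 are shown, because these genes rose together. Among the largest changes reported here, they are those with the lowest adjusted p whose window was free of annotated exons. They are from GRCm38.p6, on the minus strand, at chr16:89974700-89974949 and chr3:101924454-101924703, and capitals mark matches on either strand to AP-1 (TGANTCA), NFAT (GGAAA) or NF-kB letters (GGG and CC with 5 bases of any kind between them).
Tiam1: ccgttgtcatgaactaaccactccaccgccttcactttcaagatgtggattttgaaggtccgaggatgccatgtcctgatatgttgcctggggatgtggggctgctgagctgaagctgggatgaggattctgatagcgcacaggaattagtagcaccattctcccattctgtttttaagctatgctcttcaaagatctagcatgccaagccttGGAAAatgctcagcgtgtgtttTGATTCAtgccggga
Slc22a15: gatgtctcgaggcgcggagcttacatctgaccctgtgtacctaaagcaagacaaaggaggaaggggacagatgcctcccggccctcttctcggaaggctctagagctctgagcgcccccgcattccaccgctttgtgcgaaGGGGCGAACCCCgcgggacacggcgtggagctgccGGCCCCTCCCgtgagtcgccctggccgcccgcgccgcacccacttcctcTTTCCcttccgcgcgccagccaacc
The Tiam1 window had 1 AP-1 match and 1 NFAT match, close to the start site, and no NF-kB match. The Slc22a15 window had 1 NFAT match and 4 NF-kB matches, some of which overlapped each other, and no AP-1 match. Of 32851 windows in the RefSeq table, 6.75% held the AP-1 letters, 55.6% the NFAT letters and 45.8% the NF-kB letters. The Tiam1 start site used here lies within the longer annotated gene (chromosome 16, 89787111 to 90143769).

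Between the threshold and the comparison cells lay the 120 Ccl5-low CD8 T cells with 1 Tnfrsf4 UMI. Some genes followed the Tnfrsf4 count, which also grows with depth, and others did not. Icos had a mean of 139 CPM at 0 UMIs, 259 at 1, 377 at 2 and 758 at 3 or more, and Pdcd1 36.9, 131, 175 and 256 CPM. Lef1 went the other way, with 478, 336, 206 and 66.9 CPM. Il7r stayed between 295 and 316 CPM over these steps. Tnfsf8 stood at 21.5, 29.2, 19.0 and 198 CPM, Izumo1r at 20.9, 32.7, 96.9 and 86.2 CPM and Xcl1 at 157, 366, 689 and 271 CPM, so that these did not change at every step in 1 direction. The step at 2 UMIs rests on 9, 4 and 16 cells. These are descriptions of cells ordered by the gene that chose them.

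The members were then compared with all CD8 T cells without Tnfrsf4 (451, 1029 and 1247 cells), whatever their Ccl5 and B cell transcripts. This comparison held both naive and effector CD8 T cells on the other side, and here most cytotoxic genes were lower in the members. The limit on Ccl5 applied to the members only, so genes that follow Ccl5 differed here by construction. Of 11089 genes tested, 474 were higher and 499 lower in the members, 8.77% of all (4.27% higher and 4.5% lower), with a median log2 change of -0.03 over all genes. In 19.8% of all genes the 3 libraries did not overlap. The members entered both comparisons, so their results are not independent of each other.

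Cytotoxic genes were higher in 4 and lower in 12 of 23 (median -1.34). Against the Ccl5-low cells, which shared the limit on Ccl5, they were higher in 12 and lower in 2 of 20. Whether their fall here goes beyond the limit on Ccl5 was not tested. Gzma and Gzmb, which encode granzymes, stood at 1.74, 34.8 and 0 CPM and at 1.74, 2.49 and 18.2 CPM in the members, against 163, 120 and 104 CPM and 131, 86.7 and 64.9 CPM in the CD8 T cells without Tnfrsf4. They fell by 3.99 (SE 0.65, adjusted p = 0.0014) and 3.50 (SE 0.44, adjusted p = 0.00021). Gzmk fell by 2.55 (SE 0.26), from 116, 122 and 151 CPM to 10.5, 54.7 and 19.5 CPM, although it was 2.22 (SE 0.54) higher in the members than in the Ccl5-low cells alone. Nkg7, a granule membrane protein, fell by 1.09 (SE 0.10, adjusted p = 2.3e-05), from 762, 286 and 298 CPM to 375, 149 and 163 CPM, and against the Ccl5-low cells alone it was 0.66 (SE 0.16) higher, a call that was lost without library 2 (0.65) or library 3 (0.48), without the library term (0.55) and within the study's limits (0.39).

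A homing receptor for inflamed tissue was also low. Ccr2, a chemokine receptor of effector T cells, fell by 3.37 (SE 0.26), to 5.23, 2.49 and 6.51 CPM in the members from 43.8, 47.4 and 51.7 CPM. In the homing list 5 were higher and 7 lower of 20. The naive and memory list had 7 lower and 1 higher of 17 (median -0.56), Lef1 by -2.0 (SE 0.14).

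Several genes that were higher in the first comparison were higher over all CD8 T cells without Tnfrsf4 as well. Izumo1r rose by 2.61 (SE 0.22, adjusted p = 8.2e-06), Tnfsf8 by 3.45 (SE 0.19), Nrn1 by 2.87 (SE 0.13), Icos by 1.55 (SE 0.10) and Rnd3 by 5.07 (SE 0.35). Cxcl10, a chemokine that binds Cxcr3, stood at 401, 318 and 403 CPM in the members and at 29.7, 69.3 and 51.7 CPM (log2 change 2.73, SE 0.21, adjusted p = 4.5e-06). Eea1, an early endosome tether, stood at 477, 229 and 228 CPM against 73.2, 28.5 and 36.4 CPM (log2 change 2.63, SE 0.11). The value for Pdcd1 was 0.53 (SE 0.26, adjusted p = 0.26), and the Ccl5-high CD8 T cells without Tnfrsf4 carried 301, 238 and 283 CPM of it. The B cell genes Igkc, Jchain and Ebf1, by contrast, were lower in the members, and the limit on Cd79a applied to the members only. The call for Jchain was lost with both CD8 genes required (-2.97), without library 2 (-4.07) and without the library term. That for Ebf1 was lost on removal of cells with high Scrublet scores (-2.22). The value of Igkc was -4.42, and -1.23 within the study's limits. Of the B cell list 5 of 10 were lower. Against the Ccl5-low CD8 T cells without Tnfrsf4, which met that limit and all the other conditions, none of 7 was called. Which condition made this difference was not tested.

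The third comparison was with CD4 T cells with at least 2 Tnfrsf4 UMIs that met all the other conditions (443, 756 and 1072 cells). Fewer genes were called here. Of 9606 genes, 130 were higher and 210 lower, 3.54% of all (1.35% higher and 2.19% lower), and in 15.5% the libraries did not overlap. Against all CD4 T cells with Tnfrsf4 (821, 1618 and 2152 cells, regulatory T cells and Cd40lg+ cells among them), 175 were higher and 316 lower of 11089, 4.43% of all (1.58% higher and 2.85% lower), with 18.4% not overlapping. In that wider group all 10 tested B cell genes were lower in the members, Igkc by 5.39 (SE 0.28), again with the limit on Cd79a on 1 side only. Against the narrower group, which met that limit and all the other conditions, none of 7 was called, and this group is used below. Which condition made the difference was not tested.

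CD8 lineage genes outside the rule were higher in the members in 7 of 8 and lower in none (median 2.36). Nkg7 stood at 375, 149 and 163 CPM in the members and at 125, 31.9 and 28.0 CPM in the CD4 T cells (log2 change 2.07, SE 0.17, adjusted p = 8.3e-06). Klrd1, an NK receptor subunit, rose by 2.70 (SE 0.17), on 80.2, 74.6 and 93.7 CPM against 8.73, 15.2 and 14.1 CPM, and Ctsw by 2.12 (SE 0.12). Klrd1 was nonetheless lower in the members than in all CD8 T cells without Tnfrsf4 (-1.17) and in the Ccl5-low ones (-0.72). The latter call held in 8 of 11 alternative settings. Crtam, an adhesion receptor of activated CD8 T cells, stood at 36.6, 24.9 and 31.2 CPM against 3.27, 3.37 and 1.90 CPM (log2 change 3.34, SE 0.50, adjusted p = 0.0018). Runx3, the transcription factor that maintains the CD8 lineage, rose by 0.89 (SE 0.14, adjusted p = 0.0023) on 321, 291 and 281 CPM against 201, 140 and 144 CPM. None of these genes overlapped between the groups. The calls for Crtam and Runx3 were lost without library 3 (2.96 and 0.89) and without the library term, that for Crtam also after thinning, and Klrd1 was not called within the study's limits (0.85).

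Cytotoxic genes were higher in 8 and lower in 1 of 20 (median 0.92). Prf1, which encodes perforin, rose by 3.84 (SE 0.31), on 17.4, 32.3 and 36.4 CPM against 2.18, 2.02 and 2.16 CPM, and Klrc1, which encodes NKG2A, by 3.85 (SE 0.43). Xcl1 rose by 3.23 (SE 0.22, adjusted p = 1.8e-06), on 61.5, 10.8 and 15.0 CPM in the CD4 T cells, and in cells within the study's own limits the value was 1.17 (adjusted p = 0.40). The gene that fell was Fasl, the death ligand, by 1.91 (SE 0.41), a call lost without library 1 (-1.63) or library 2 (-1.5). Ncald, a calcium sensor, and Bend4, a DNA-binding protein, were also among the genes that rose most, by 2.28 (SE 0.30) and 3.21 (SE 0.26), the latter 1.92 and not called within the study's limits.

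Helper T cell genes were lower in 4 of 8 and higher in none (median -1.31). Maf, a transcription factor of helper T cells, stood at 45.3, 84.6 and 63.8 CPM in the members and at 358, 284 and 249 CPM in the CD4 T cells, a fall by 2.21 (SE 0.20, adjusted p = 3.5e-05). It was nonetheless 2.53 (SE 0.29) higher in the members than in Ccl5-low CD8 T cells without Tnfrsf4, where it stood at 5.80, 11.7 and 7.46 CPM. Tnfsf8 lay between the same groups, at 572, 591 and 635 CPM in the CD4 T cells, a fall by 1.79 (SE 0.16) in the members. Gata3 fell by 1.19 (SE 0.21), a call lost without library 2 (-0.93) or library 3 (-1.35). Zbtb7b, the transcription factor that sets the CD4 lineage, was too low to be tested, at 0, 0 and 1.30 CPM in the members and 2.91, 3.54 and 2.79 CPM in the CD4 T cells, and is named here after its values were seen.

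Some of the genes higher in the members than in Ccl5-low CD8 T cells without Tnfrsf4 were close to the CD4 T cells' level. The value of Icos was -0.15 (SE 0.15, adjusted p = 0.71), of Pdcd1 0.10 (SE 0.26, adjusted p = 0.92), of Cd44, the hyaluronan receptor of antigen-experienced T cells, -0.01 (SE 0.21), and of Cxcr3 0.05 (SE 0.16). For Nt5e it was 0.18 (SE 0.23). A p above the threshold does not show that they were equal. Other such genes differed from the CD4 T cells. Nrn1 was higher in the members (1.09, edgeR adjusted p = 0.001) and Eea1 lower (-0.94, adjusted p = 0.00057). Both calls were lost without library 3 (1.01 and -0.88), without the library term and within the study's limits (0.81 and -0.48). The inhibitory list had 1 higher and 1 lower of 10, the receptors 1 higher of 11, the brakes 1 higher and 1 lower of 17 and the antigen receptor response genes none of 16. The brake that was lower was Izumo1r, by 0.74 (SE 0.17, adjusted p = 0.024), on 224, 119 and 124 CPM in the CD4 T cells. It was called in 4 of 11 alternative settings, and its call was lost, among others, without library 1 or 2, without the library term, after thinning and within the study's limits (-0.49 to -0.84).

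Tnfsf4 was among the genes that were higher in the members than in the CD4 T cells. It stood at 23.6, 24.0 and 11.7 CPM in the CD4 T cells, so the members were higher by 1.91 (SE 0.24, adjusted p = 0.00055). Its level in the Tnfrsf4+ Ccl5-high CD8 T cells was 92.7, 145 and 94.0 CPM, above that of the members in 2 of 3 libraries. Cxcl10 was higher in the members by 2.06 (SE 0.26), on 97.1, 91.4 and 86.9 CPM in the CD4 T cells. Ccn4, Penk and Sostdc1, which encode secreted proteins, decreased by 2.76 (SE 0.22), 2.38 (SE 0.46) and 2.0 (SE 0.22) on the log2 scale. The call for Penk was lost without library 3 (-2.15), with DESeq2 (-2.34) and without the library term (-2.33). Ccn4 and Sostdc1 were nonetheless higher in the members than in Ccl5-low CD8 T cells without Tnfrsf4, by 4.66 and 5.48. That call for Ccn4 was lost after thinning (3.26) and within the study's limits (3.45).

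**Figure D4:**
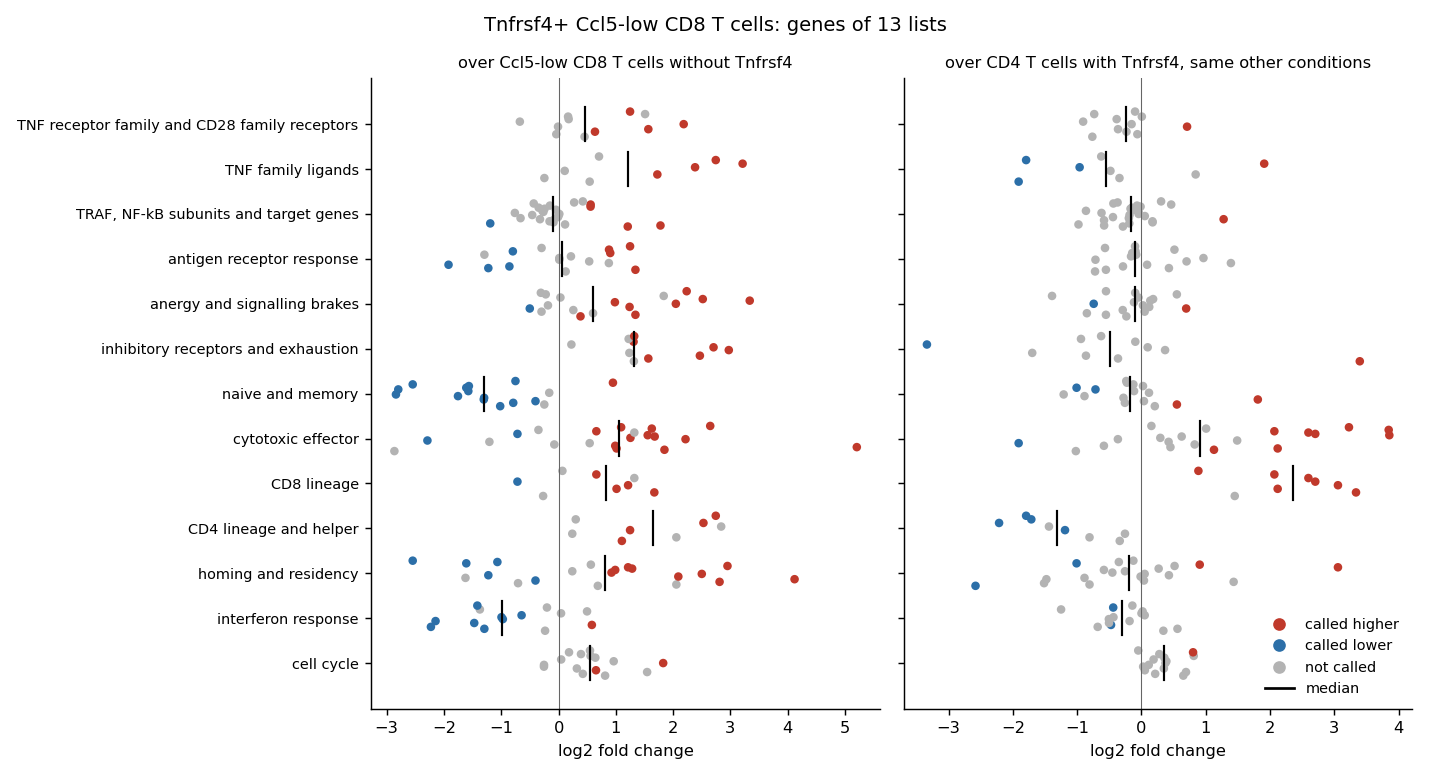
Log2 fold change (horizontal axes) of the tested genes of 13 lists in Tnfrsf4+ Ccl5-low CD8 T cells over Ccl5-low CD8 T cells without Tnfrsf4 (left) and over CD4 T cells with Tnfrsf4 under the same other conditions (right), with 1 point per gene and a bar at the median. Naive and interferon genes lay mostly on the left of 0 in the CD8 comparison, and CD8 lineage genes on the right of 0 in the CD4 comparison.

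Regulatory T cell genes were examined because Tnfrsf4, Izumo1r and Nrp1 are known from those cells. Foxp3 was at 0 by the rule and Gpr83 was at 0 in each library without it. Of 6 tested genes, 4 were higher than in Ccl5-low CD8 T cells without Tnfrsf4 (median 1.40), Ctla4, Ikzf2 (1.24, SE 0.24), Lrrc32 (3.21, SE 0.54) and Capg, and 1 was lower than in the CD4 T cells without Foxp3, Lrrc32 by 1.42 (SE 0.30). Ikzf2, which encodes Helios, stood at 277, 251 and 350 CPM in the members and at 384, 239 and 222 CPM in those CD4 T cells, with overlapping values. Its call against the CD8 T cells was lost within the study's limits (0.28), without the library term (1.09) and without library 3 (0.81). The call for Capg was lost without library 3 (1.35), and that for Lrrc32 against the CD4 T cells held in 5 of 11 settings and was lost without library 1 or library 3 (both -1.45).

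Transcripts of other cell types were uneven between libraries. The B cell list summed to 2210, 256 and 345 CPM in the members, with a UMI of all 11 genes and Cd74 as the most abundant, and to 1244, 297 and 2030 CPM in the Ccl5-low CD8 T cells without Tnfrsf4. The myeloid and dendritic list summed to 1023, 152 and 171 CPM, with Cst3 as the most abundant of 11 and the macrophage genes C1qa, C1qb and Csf1r at 0, and to 226, 104 and 376 CPM in the same comparison cells. Library 1 was the highest of the members for both. Siglech, a plasmacytoid dendritic cell gene, stood at 50.5 CPM in library 1 and at 0 in the other libraries. The NK list summed to 122, 27.4 and 26.0 CPM, with Klre1 as the most abundant of 8 and the defining genes Ncr1 and Klrb1c at 0, the gamma-delta list to 38.3, 22.4 and 31.2 CPM with 7 of 12 at 0, Zbtb16 among them, and the endocrine list to 80.2, 9.95 and 22.1 CPM with Ins2 as the most abundant of 8 and Sst and Pyy at 0. In the comparison cells the NK list summed to 39.6, 3.97 and 35.7 CPM, the gamma-delta list to 21.3, 24.5 and 17.5 CPM and the endocrine list to 94.7, 20.5 and 7.22 CPM. Against the Ccl5-low CD8 T cells without Tnfrsf4 no B cell, myeloid or endocrine gene was called. Klre1 was higher (2.12, SE 0.43), a call lost after thinning (1.90) and at 3 or more Tnfrsf4 UMIs (1.64). Tcrg-C2 was higher (2.17, but not called without library 2, at 1.64, or library 3, at 2.16). Trdc was lower (-3.87), with a UMI in 1 member. It was called in 4 of 6 alternative settings, not with DESeq2 (-3.66) or without the library term (-3.98). The part of these transcripts in the other results was not tested.

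The members were not uniform. In the shallower cells, under 6000 UMIs (29, 14 and 30 cells), the mean level of Lef1 was 35.9 CPM, against 93.8 CPM in the deeper cells, and Cd8b1 was at 341 and 271 CPM. Xcl1 stood at 95.8, 14.6 and 97.9 CPM in the shallower and at 974, 92.9 and 126 CPM in the deeper cells, with library 1 far above the others. Izumo1r stood at 184, 14.6 and 90.9 CPM and at 84.7, 65.9 and 107 CPM, and the libraries did not share a direction. Among members with an Izumo1r UMI 46.2% had a UMI of Nt5e and 53.8% of Pdcd1, against 37.8% and 44.5% of those without, at median depths of 8239 and 6517 UMIs. Depth was not equalised in these shares.

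T cell receptor beta V genes were seen in a minority of the members of each library. Reads came from the 3′ ends of transcripts, and whether this limited their detection was not tested. A Trbv UMI was found in 21, 18 and 15 members, from 12, 9 and 12 different Trbv genes of 35 in the annotation. The members of each library held more than 1 beta chain gene. Of the cells, 3, 3 and 1 had UMIs of at least 2 Trbv genes, which were 4.55%, 7.14% and 1.12% of members, against 3.85%, 1.90% and 1.06% of the Ccl5-low CD8 T cells without Tnfrsf4 and 5.42%, 4.89% and 2.52% of the gated CD4 T cells. The members were above the other Ccl5-low CD8 T cells in each library, on few cells.

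**Figure D5:**
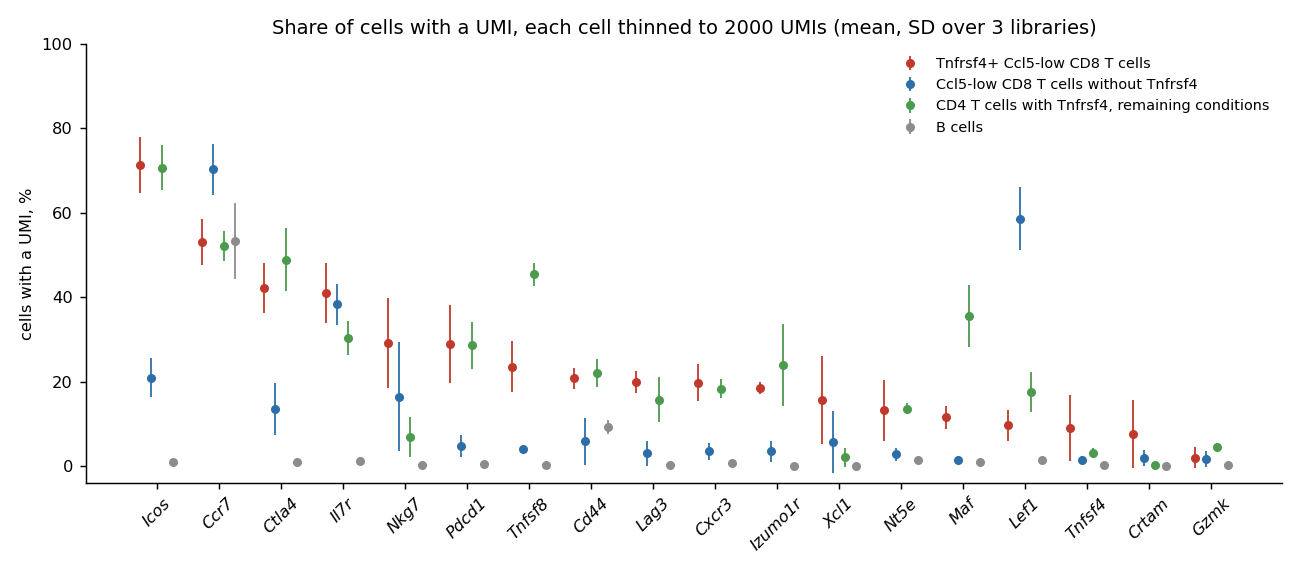
Share of cells with at least 1 UMI (vertical axis, %) of 18 genes after each cell was thinned to 2000 UMIs, as mean and SD of 3 libraries, in Tnfrsf4+ Ccl5-low CD8 T cells, the main comparison groups and B cells. Icos was found in 71.4% of the members and in 21.0% of the Ccl5-low CD8 T cells without Tnfrsf4, and Lef1 in 9.69% and 58.6%, while B cells lay near 0 for most genes.

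Detection per cell at equal depth gave the same order as the summed levels for Tnfsf8 and Nkg7. Tnfsf8 was found in 23.5% ± 6.04 of the members, in 3.99% ± 0.630 of the Ccl5-low CD8 T cells without Tnfrsf4 and in 45.4% ± 2.84 of the CD4 T cells with Tnfrsf4. Pdcd1 was found in 28.8% ± 9.26, 4.79% ± 2.63 and 28.6% ± 5.57 of these groups, so that the members and the CD4 T cells were close. By library its shares were 19.7%, 28.6% and 38.2% in the members and 22.2%, 31.5% and 32.1% in the CD4 T cells. Nkg7 was found in 29.1% ± 10.6, 16.5% ± 13 and 6.92% ± 4.81, and library 1 had the highest share in both CD8 groups, 40.9% and 31.4%. In B cells the shares were 0.178%, 0.433% and 0.241%. For Icos and Nt5e the members and the CD4 T cells were close, with shares of 71.4% and 70.7% for Icos and of 13.2% and 13.5% for Nt5e, and the order of the summed levels was not that of these shares. Thinning left out 10, 0 and 4 of the gated CD4 T cells, 10, 4 and 1 of the B cells, and none of the members or of the Ccl5-low CD8 T cells without Tnfrsf4.

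Of 41 genes followed by name that were called between the members and the Ccl5-low CD8 T cells without Tnfrsf4, 17 were called in the same direction in all 11 alternative settings, Icos, Itgb1, Izumo1r, Nt5e, Pdcd1, Lag3, Tnfsf4, Tnfsf8, Cxcr3, Maf and Lef1 among them. Against the CD4 T cells with Tnfrsf4 under the same other conditions this held for 4 of 17, Klrc1 (tested in 10 of the settings), Maf, Prf1 and Tnfsf8.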

How the data were processed

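Single-cell RNA was measured in 3 libraries of sorted CD45+ islet cells. The deposited values are raw UMI counts per gene and cell, which the authors made with Cell Ranger 6.0.1 against mm10, per the submitters' processing notes, and no normalization was applied before deposit. The matrices held 32285 genes, and the libraries held 33851381, 74775394 and 80806452 UMIs. Coordinates are those of GRCm38, the build that mm10 names.

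From these counts, cells with at least 1000 UMIs and under 10% mitochondrial UMIs were kept, the rule for members and comparison cells was applied, and counts were summed per library and group. CD8 comparison cells also had at least 1 UMI of a CD3 gene. Sums were tested with edgeR 4.0.16 in R 4.3.3 (TMM scaling, its default filter on low counts, quasi-likelihood test, library as a block), each fit holding the members with 1 CD8 and 1 CD4 group. Benjamini-Hochberg adjustment ran over all tested genes except the 11 of the rule, and an adjusted p under 0.05 made a call. Groups were paired by library, since the cells summed in a library were from the same mice. The sums' deviations from group means correlated at 0.406 to 0.857 within a library (9 pairs, 4343 genes) and at -0.798 to 0.556 between libraries (18 pairs). Deviations from a mean of 3 libraries cancel out, which lowers the correlations between libraries by construction. Standard errors are the log2 change over the root of F. With the library as a block, p-values rest on how the difference between groups within a library varied over the 3 libraries. Cells of 1 library are not replicates. Binomial intervals cover counting error only, and SDs are between libraries.

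The members, the gene lists and the tests were chosen with earlier results of these data known. Genes were named by rule: those that chose or label the cells, 2 to 4 of each list with the lowest adjusted p, and per comparison the 10 largest changes each way with at least 50 CPM in the higher group and 1 direction in 3 of 3 libraries. Genes named beyond that rule, such as Tnfrsf18, Tigit, Ccr7, Egr2, Egr3, Siglech and the members of short counts, were picked after their values were seen. Other settings tried were DESeq2 1.42.0, no filter, no block, each library left out, the study's limits on cells, removal of cells with high Scrublet scores (scanpy 1.11.5), thinning to 2000 UMIs, both CD8 genes required, and at least 3 Tnfrsf4 UMIs. On simulated counts for the fit against the Ccl5-low CD8 T cells without Tnfrsf4 (9286 genes), 56.8% of 2-fold and 79.4% of 4-fold changes were recovered and 5.07% of calls were false. For the fits against all CD8 T cells without Tnfrsf4 (10858 genes), all CD4 T cells with Tnfrsf4 (10858) and the gated ones (9286), recovery was 45.9%, 42.9% and 58.9% at 2-fold and 69.4%, 71.4% and 82.5% at 4-fold, with 6.61%, 3.45% and 6.85% of calls false. The simulated counts had no library effect and few changed genes, unlike the real sums. Recovery and the share of false calls in the real data may therefore differ. Promoter windows are from RefSeq (GRCm38.p6), and both genes sought matched. A few genes that met the naming rule are not reported here.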

Additional observations from a re-analysis of the deposited data

How the results depend on the processing

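Counts of calls below are against all CD8 T cells without Tnfrsf4, against the Ccl5-low ones and against all CD4 T cells with Tnfrsf4, where the reported counts were 973, 1332 and 491. Without the replicate block, which the shared mice call for, they were 320, 464 and 116. Within the study's limits on cells they were 514, 631 and 199, with 29, 9 and 24 members left, and with each cell thinned to 2000 UMIs they were 534, 685 and 204. Leaving out 1 library gave 305 to 1117, 508 to 1476 and 111 to 648 calls, lowest without library 3 and highest without library 1. Without library 2 they were 614, 690 and 267. With no filter on low counts the CD4 comparison had 943 calls. The cause of these differences was not tested, and some of these settings also held fewer cells, libraries or UMIs. DESeq2 (1016, 1143 and 570 calls), removal of cells with high Scrublet scores (988, 1399 and 407), both CD8 genes required (883, 1155 and 572) and at least 3 Tnfrsf4 UMIs (955, 1294 and 430) stayed within 1.5 times. DESeq2 split the CD4 comparison into 264 higher and 306 lower, against 175 and 316. Of the values of single named genes under these settings, 604 kept direction and side of the threshold, 38 were no longer called, and 1 turned round, Klrd1 against all CD4 T cells with Tnfrsf4, at -0.91 (adjusted p = 0.798) within the study's limits. Named genes that dropped out of testing in a setting are not in these counts. Within the study's limits, of 20 genes named against all CD4 T cells with Tnfrsf4, 6 kept direction and call. Of the others there, 3 were no longer called, Klrd1 turned round and the rest had no value. The mean share of members among CD8 T cells was 4.46% to 8.12% with a library left out and 5.14% within the study's limits. The members' sums of 402149 to 768314 UMIs limit what can be seen in genes of a few CPM.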
